A study of Homo sapiens with 6 samples.

Results

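A set of 10 inflammatory cytokine and chemokine genes were followed in MiaPaCa-2 cells, an established line of human pancreatic ductal adenocarcinoma (PDAC), under glucose withdrawal. They were chosen by symbol and matched to the expression table by Ensembl identifier. All 10 of 10 were found among the 60668 genes of the table, and 8 had a read in at least 1 library. They comprise the neutrophil-attracting chemokines CXCL8, CXCL1, CXCL2 and CXCL3, the monocyte-attracting chemokine CCL2, the gp130 cytokines IL6, IL11 and LIF, and the interleukin-1 cytokines IL1A and IL1B. Total RNA was sequenced from 3 libraries of cells kept at 2.5 mM glucose for 48 h and 3 control libraries, with control medium at 25 mM glucose according to the design text. The treatment field repeats 2.5 mM for all 6 samples, so the controls were taken from their titles. No other agent and no altered allele is listed for either group, and all 6 libraries represent 1 cell line grown without stromal or immune cells. The labels call the 3 samples of each group separate biological replicates.

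Chemokines with a glutamate-leucine-arginine motif, such as CXCL8 and its CXCL1 to CXCL3 relatives, bind the receptors CXCR1 and CXCR2 and draw neutrophils into tissue. The gp130 cytokines bind a receptor of their own together with the shared subunit gp130 (encoded by IL6ST) and signal through JAK kinases and STAT3, while the interleukin-1 cytokines bind IL1R1 with its partner IL1RAP and activate NF-kB. These genes are induced by NF-kB, AP-1 and C/EBP factors, their mRNAs are short-lived, and in pancreatic tumors their products shape the surrounding immune cells and fibroblasts.

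Sequencing depth was 9741183, 10126218 and 10190154 gene reads in the control libraries, called here the shallowest, the middle and the deepest, and every set of control values below follows that order. Low-glucose replicates 1 and 2 held 10841656 and 10595408 reads and the third library, the deepest, 13733477, again in that order below. The columns of 4 of the 6 libraries carry no sample label and were assigned to a group by their names, as described with the processing. A count of 0 allows up to 3 reads, which is 0.218 to 0.308 CPM (reads scaled to an equal library total). The epithelial keratin genes KRT8, KRT18 and KRT19 were abundant, with log2 fold changes of -1.01, -0.74 and -0.83 in low glucose. Of the other carcinoma cell markers VIM was at 0.42, MKI67 at -1.58 and KRT7, on 2 to 12 reads, at 0.85. The epithelial adhesion genes EPCAM and CDH1 had 0 to 3 reads. Of 8 leukocyte markers, PTPRC and CD3E were at 0 in all 6 libraries, and the 8 together gave a summed normalized value of 50.2 to 68.5 for controls, against 24.2 to 37.5 after glucose withdrawal. The 9 fibroblast and endothelial markers summed to between 2846 and 3113 for controls and between 1938 and 1966 after glucose withdrawal. COL1A2, with 1940 to 2577 reads, made up most of that sum, CDH5 ranged over 145 to 165 reads for controls and 10 to 16 after withdrawal, DCN had 0 reads and LUM 0 to 1. The part of these markers in the members' differences was not tested. The median log2 fold change of all 21101 genes tested was 0.05, and scaling by library size moved it to 0.13.

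Of the 10 members, 7 were higher under low glucose, none was lower, 1 (IL11) did not pass the test and 2 (CCL2 and IL6) had no read. Over all 21101 genes tested, 14.7% were higher and 16.2% lower at the same threshold (limma, two-sided, Benjamini-Hochberg adjusted p under 0.05). All 8 members with a read had a control mean above the filter of 1 normalized count. Their median log2 fold change was 1.36. The 3 low-glucose libraries lay above the 3 control libraries for 7 members, while 22.1% of all genes tested were separated in that direction and 21.8% in the other. At a log2 fold change of at least 1 as well, 5 members were called, against 5.18% of all genes tested. On the recovered reads edgeR called 6 members higher and 0 lower, against 20.9% and 21.9% of its genes, and DESeq2 called 7 higher and 0 lower, against 13.8% and 17.7%. A normalized count is a read count divided by a size factor of the library.

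**Figure D1:**
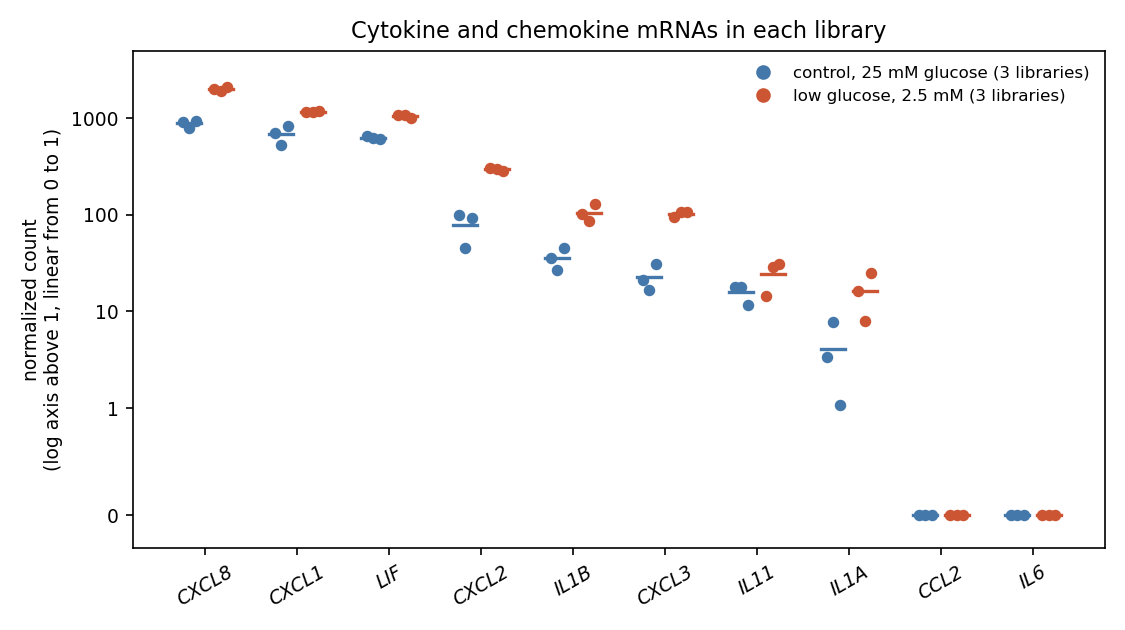
Normalized counts (y axis, symmetric log scale) of the 10 members in each of the 6 libraries, with the mean of each group. The 3 low-glucose points lie above the 3 control points for CXCL8, CXCL1, CXCL2, CXCL3, LIF, IL1A and IL1B, the points of IL11 overlap, and CCL2 and IL6 are at 0 throughout.

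CXCL8, CXCL1, CXCL2 and CXCL3 lie together on chromosome 4. The stretches just before their start sites are shown because the same NF-kB motif stands in each of them and because the IL6 promoter, with the same kind of motif, precedes a gene without reads here. Each is 150 bases long, up to the base before the start, from RefSeq on GRCh38.p14: CXCL8 at chr4:73740419-73740568 (plus strand), CXCL1 at chr4:73869243-73869392 (plus), CXCL2 at chr4:74099196-74099345 (minus), CXCL3 at chr4:74038690-74038839 (minus) and IL6 at chr7:22727050-22727199 (plus). They are written 5′ to 3′ on the strand of the gene, and capitals mark matches to the motifs searched: the NF-kB motif in each, and in CXCL8 also an AP-1 motif on the left and a TATA motif on the right.
CXCL8: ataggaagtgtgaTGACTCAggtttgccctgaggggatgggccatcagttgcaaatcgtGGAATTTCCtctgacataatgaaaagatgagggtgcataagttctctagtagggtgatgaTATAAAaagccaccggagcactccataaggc
CXCL1: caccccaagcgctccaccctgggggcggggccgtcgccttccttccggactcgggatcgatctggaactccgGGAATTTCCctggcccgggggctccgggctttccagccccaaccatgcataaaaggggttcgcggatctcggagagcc
CXCL2: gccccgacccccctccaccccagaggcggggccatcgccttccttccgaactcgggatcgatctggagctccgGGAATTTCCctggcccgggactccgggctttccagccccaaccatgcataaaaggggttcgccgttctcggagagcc
CXCL3: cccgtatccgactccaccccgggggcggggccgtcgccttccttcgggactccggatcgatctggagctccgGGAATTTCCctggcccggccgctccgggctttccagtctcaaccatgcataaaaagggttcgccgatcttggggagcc
IL6: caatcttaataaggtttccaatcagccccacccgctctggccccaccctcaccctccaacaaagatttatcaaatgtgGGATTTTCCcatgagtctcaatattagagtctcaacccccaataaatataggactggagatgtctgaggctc

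The motifs were looked for on both strands from 250 bases before to 50 bases after the start in the 35116 promoters of the RefSeq table, which has an entry for 8 of the 10 members (not for LIF and CCL2). The NF-kB motif was GGANTTTCC, where N is any base. It was found in 5 of those 8 members and in 1.64% of all promoters, and its first base lay at -91 in CXCL8, -78 in CXCL1, -77 in CXCL2, -78 in CXCL3 and -72 in IL6. The AP-1 motif TGANTCA was found in CXCL8, IL11 and IL1A and in 7.71% of all promoters. The C/EBP motif TTGCNNAA was found in CXCL2, IL6 and IL1B, against 10.5% of all promoters, and the TATA motif TATAAA in CXCL8 and IL1A, against 11.5%. The composite C/EBP-ATF motif TGATGNAA, present in 3.62% of all promoters, was in none of the 8. No match of one motif overlapped a match of another in these members. The windows of CXCL1, CXCL2 and CXCL3 were alike, with 88.7% identity between CXCL1 and CXCL2, 88.1% between CXCL1 and CXCL3 and 86.1% between CXCL2 and CXCL3, whereas their identity with the CXCL8 window was 37.4% to 41.7%. A match describes the letters of the window and not a bound site.

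CXCL8 (interleukin-8, ENSG00000169429.11, chr4:73740519-73743716) was among the most abundant members and more than doubled. It had 823, 717 and 871 reads in control and 2066, 1926 and 2793 reads in low glucose. All low-glucose libraries stood above all controls, and the ranges were far apart. The normalized count was 885 ± 74.1 in control and 2002 ± 108 in low glucose (SD, n = 3 each), a ratio of 2.26, with a log2 fold change of 1.18 ± 0.08 (SE; limma adjusted p = 2.38e-07).

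CXCL1 (ENSG00000163739.5, chr4:73869393-73871308), a growth-regulated chemokine first known for its activity on melanoma cells, rose less. Its reads were 634, 470 and 775 in control and 1201, 1165 and 1574 in low glucose. The low-glucose libraries lay close together and above all controls, whereas the controls were spread, with the middle library lowest. The normalized count was 688 ± 154 in control and 1166 ± 23.0 in low glucose (SD, n = 3 each), a ratio of 1.7, with a log2 fold change of 0.79 ± 0.13 (SE; limma adjusted p = 0.000293).

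CXCL2 (ENSG00000081041.9, chr4:74097040-74099196) and CXCL3 (ENSG00000163734.4, chr4:74036589-74038807), closely related chemokines of the same receptor, rose further from lower levels. CXCL2 had 88, 41 and 87 reads in control and 318, 301 and 379 in low glucose. The middle control library was again the lowest, and no control library came near a low-glucose library. The normalized count of CXCL2 was 79.1 ± 29.1 in control and 297 ± 9.37 in low glucose (SD, n = 3 each), a ratio of 3.75 and a log2 fold change of 1.97 ± 0.22 (SE; limma adjusted p = 1.32e-05). CXCL3 had 19, 15 and 29 reads in control and 98, 108 and 141 in low glucose. Its groups were likewise apart, on low read counts in control. The normalized count of CXCL3 was 23.0 ± 7.31 in control and 103 ± 7.21 in low glucose (SD, n = 3 each), a ratio of 4.46 and a log2 fold change of 2.15 ± 0.23 (SE; limma adjusted p = 1.04e-05). Among all genes tested, 99.2% had a smaller log2 fold change than CXCL3 and 98.8% a smaller one than CXCL2. Without the middle control library the log2 fold changes were 1.11 for CXCL8, 0.60 for CXCL1, 1.62 for CXCL2 and 1.95 for CXCL3, and all 4 still passed the test.

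The coding sequences of CXCL1, CXCL2 and CXCL3 are alike, with identities of 93.5% between CXCL1 and CXCL2, 90.7% between CXCL1 and CXCL3 and 94.4% between CXCL2 and CXCL3. Their canonical transcripts had 0 stretches of 150 bases in common, the length of the reads before trimming. How shorter reads were divided among the 3 genes is not known.

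Reads of the chemokines were also compared with one another within a library, which removes the scaling between libraries. CXCL1 reads were 77.2 ± 11.7% of CXCL8 reads in control and 58.3 ± 2.07% in low glucose (SD, n = 3 each). CXCL2 reads were 11.3 ± 2.58% of CXCL1 reads in control and 25.5 ± 1.24% in low glucose. CXCL3 reads were 3.31 ± 0.386% of CXCL1 reads in control and 8.80 ± 0.573% in low glucose. In these 3 pairs the groups did not overlap, and each had the smallest p that 3 against 3 libraries can give (exact permutation test, two-sided, p = 0.1, adjusted p = 0.15 over 6 pairs compared), so none could reach 0.05. The CXCL3 share of CXCL2 reads was 30.5 ± 7.89% in control and 34.6 ± 3.37% in low glucose (exact permutation p = 0.6, adjusted p = 0.6), a difference within the spread between libraries.

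**Figure D2:**
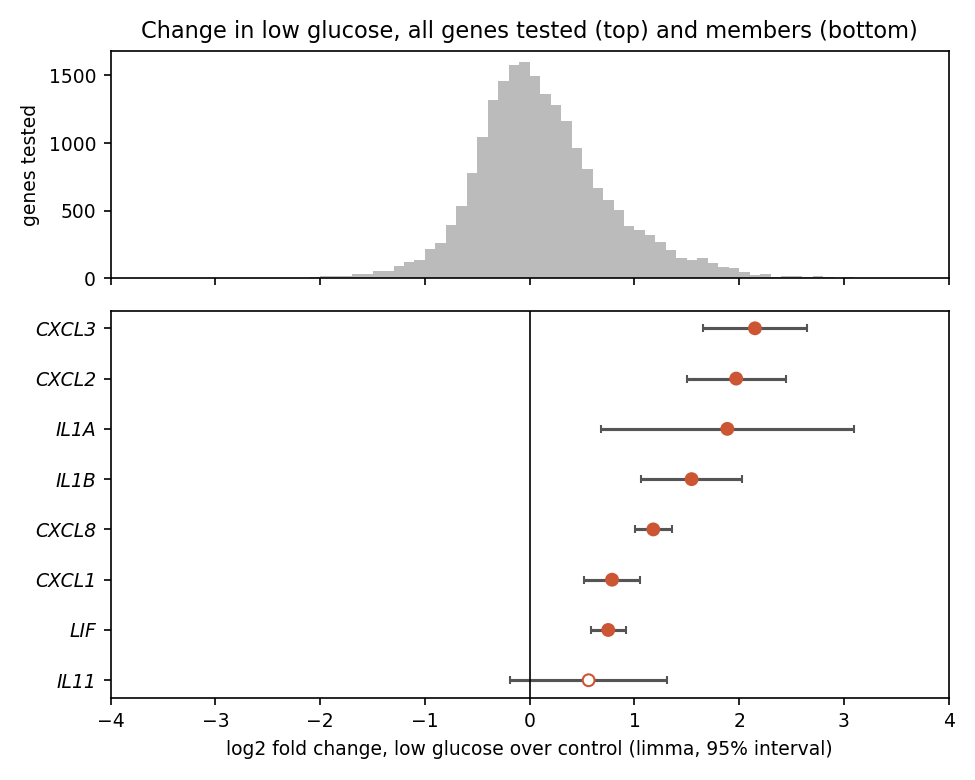
Log2 fold change (x axis, low glucose over control, points with 95% interval) of the 8 members that had reads, over a histogram of all 21101 genes tested. CXCL3 and CXCL2 stand farthest to the right at 2.15 and 1.97, and the interval of IL11 alone includes 0.

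The block from CXCL8 to CXCL2 spans 359 kb between gene starts and holds 18 annotated genes, of which 9 reached a mean of 1 normalized count. CXCL5, a neutrophil-attracting chemokine between CXCL1 and CXCL3, had 587, 527 and 634 reads in control and 1270, 1271 and 1784 in low glucose. It was higher by a log2 fold change of 0.99 (limma adjusted p = 1.13e-06), with the groups apart, as for 22.1% of all genes tested in that direction. Its exons share 422 bases with the opposite-strand transcript ENSG00000287037, whose log2 fold change was 1.07 (limma adjusted p = 2.88e-06), and the strand setting of the counting is not known. This transcript and the other genes of the block with reads enough to test were picked out after their values were seen. PF4, the platelet factor, rose from 1, 0 and 0 reads to 6, 4 and 7 reads (log2 fold change 2.21, limma adjusted p = 0.0125), a handful of reads. CXCL6 had 4, 2 and 1 reads in control and 7, 6 and 10 in low glucose and did not pass the test (1.22, limma adjusted p = 0.0929), and the pseudogene PPBPP2 had 0 to 4 reads and a log2 fold change of -0.05.

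**Figure D3:**
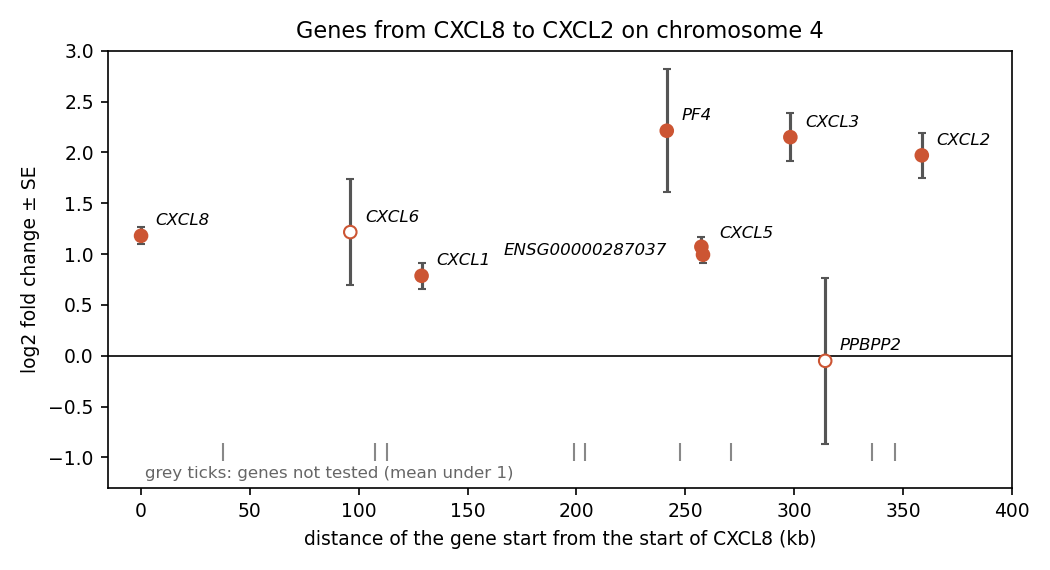
Log2 fold change with its SE (y axis) of the 9 tested genes from CXCL8 to CXCL2 against the distance of the gene start from the start of CXCL8 in kb (x axis), with filled points for adjusted p under 0.05 and grey ticks for the 9 genes not tested. The 4 member chemokines, CXCL5, its opposite-strand transcript and PF4 are above 0 and filled, and CXCL6 and PPBPP2 are open.

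CCL2 (ENSG00000108691.9, chr17:34255274-34257208), which recruits monocytes through CCR2, had 0 reads in all 6 libraries. IL6 (ENSG00000136244.12, chr7:22725884-22732002), the prototype of the gp130 cytokines, had 0 reads in all 6 as well. Its opposite-strand neighbour IL6-AS1, which overlaps it over 428 bases, was also at 0. With up to 3 reads allowed per library, no level and no fold change can be given for either gene.

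LIF (leukemia inhibitory factor, ENSG00000128342.5, chr22:30240453-30246759) was the abundant gp130 cytokine. Its reads were 587, 563 and 570 in control and 1129, 1101 and 1340 in low glucose. The control libraries were nearly equal, and all low-glucose libraries stood clear of them. The normalized count was 632 ± 24.4 in control and 1063 ± 41.3 in low glucose (SD, n = 3 each), a ratio of 1.68, with a log2 fold change of 0.75 ± 0.08 (SE; limma adjusted p = 7.50e-06). LIF exons overlap the opposite-strand genes LIF-AS1 over 86 bases and LIF-AS2 over 83 bases, which had 8 to 21 and 47 to 155 reads, fewer than LIF in every library. LIF reads were 71.8 ± 6.55% of CXCL8 reads in control and 53.3 ± 4.75% in low glucose, with the groups apart (exact permutation p = 0.1, adjusted p = 0.15).

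IL11 (ENSG00000095752.7, chr19:55364382-55370463), a gp130 cytokine with its own receptor subunit, was sparse. It had 16, 16 and 11 reads in control and 15, 29 and 41 in low glucose. Replicate 1 of low glucose lay within the control range, so the groups overlapped. The normalized count was 15.8 ± 3.53 in control and 24.7 ± 8.99 in low glucose (SD, n = 3 each), and the log2 fold change of 0.56 had a 95% interval of -0.18 to 1.31 (limma adjusted p = 0.246). A change in IL11 was not detected with these libraries.

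IL1B (interleukin-1 beta, ENSG00000125538.12, chr2:112829751-112836816) is made as an inactive precursor and secreted after cleavage. It had 32, 24 and 42 reads in control and 106, 87 and 171 in low glucose. Every low-glucose library exceeded every control library, and the deepest low-glucose library was highest. The normalized count was 35.9 ± 9.09 in control and 106 ± 22.1 in low glucose (SD, n = 3 each), a ratio of 2.95, with a log2 fold change of 1.55 ± 0.22 (SE; limma adjusted p = 0.000123). IL1B reads were 4.02 ± 0.746% of CXCL8 reads in control and 5.26 ± 0.810% in low glucose (exact permutation p = 0.2, adjusted p = 0.24).

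IL1A (interleukin-1 alpha, ENSG00000115008.5, chr2:112773925-112784493), an alarmin that is active without cleavage, was near the detection floor. It had 3, 7 and 1 reads in control and 17, 8 and 33 in low glucose. The groups only just failed to overlap, since the highest control value was 7.80 normalized counts and the lowest low-glucose value 7.90. The normalized count was 4.08 ± 3.42 in control and 16.4 ± 8.55 in low glucose (SD, n = 3 each), with a log2 fold change of 1.89 ± 0.56 (SE; limma adjusted p = 0.0198). This call was lost without the shallowest control library (1.90, limma adjusted p = 0.0539), the deepest control library (1.36, 0.0513), low-glucose replicate 1 (1.82, 0.0907) or the deepest low-glucose library (1.53, 0.125), and also without the variance trend (1.89, 0.10).

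Levels were compared between genes in TPM, a share of the library's reads per base of exon, computed from the reads and the exon length of each gene. That length merged all annotated exons of a gene, and was 2588 bases for CXCL8 and 1362 for CXCL1. In control the order was CXCL1 at 152 TPM (range 115 to 182), CXCL8 at 103 (92.5 to 109), LIF at 49.2 (47.0 to 52.2) and CXCL2 at 17.1 (9.79 to 21.7). IL1B at 3.59 TPM (2.66 to 4.45) and CXCL3 at 3.12 (2.26 to 4.17) overlapped, and IL11 at 1.79 (1.31 to 2.06) and IL1A at 0.609 (0.158 to 1.16) followed. In low glucose CXCL1 at 247 TPM (241 to 255) and CXCL8 at 224 (210 to 238) remained the top members, ahead of LIF at 79.3 (76.4 to 81.3) and CXCL2 at 61.3 (59.9 to 63.4). CXCL3 at 13.4 TPM (12.3 to 14.0) and IL1B at 10.2 (8.15 to 12.5) overlapped, as did IL11 at 2.66 (1.56 to 3.38) and IL1A at 2.36 (1.12 to 3.61). On these lengths the order of the 4 highest members was the same in both conditions, and their neighbours in it did not overlap. CXCL8 had more reads than CXCL1 in every library, and the order on the lengths of single transcripts was not tested. Together the members accounted for 353, 274 and 366 TPM in control and 639, 617 and 663 TPM in low glucose. CXCL8, CXCL1 and LIF held 91.3%, 93.5% and 91.8% of the members' summed TPM in control and 86.0%, 86.0% and 85.9% in low glucose, so the summed level was less concentrated in these 3 genes in every low-glucose library.

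The middle control library was the lowest control in normalized count for CXCL8, CXCL1, CXCL2, CXCL3 and IL1B. In the same library, genes with a canonical transcript of over 1000 and up to 1500 bases (1356 genes at a mean of at least 10) deviated from the control mean by a median of -0.11 on the log2 scale, against 0.00 and 0.11 in the other controls and 0.11, 0.10 and 0.09 in the low-glucose libraries. For over 1500 and up to 2500 bases the deviations were smaller. They were -0.05 in the middle control, -0.002 and 0.06 in the other controls and 0.04, 0.02 and 0.04 in low glucose. The fit was repeated with this length trend removed from each library, an alternative added after the data were seen. Because the low-glucose libraries share the trend, the refit cannot tell its part in the members' differences from that of the treatment. The log2 fold changes were then 1.07 for CXCL8, 0.63 for CXCL1, 1.81 for CXCL2, 1.99 for CXCL3, 0.74 for LIF, 1.42 for IL1B and 1.79 for IL1A, and all 7 still passed the test. The share of mitochondrial reads was 2.82%, 3.82% and 2.47% in control and 4.65%, 5.12% and 4.85% in low glucose, and its part in the members' differences was not tested.

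**Figure D4:**
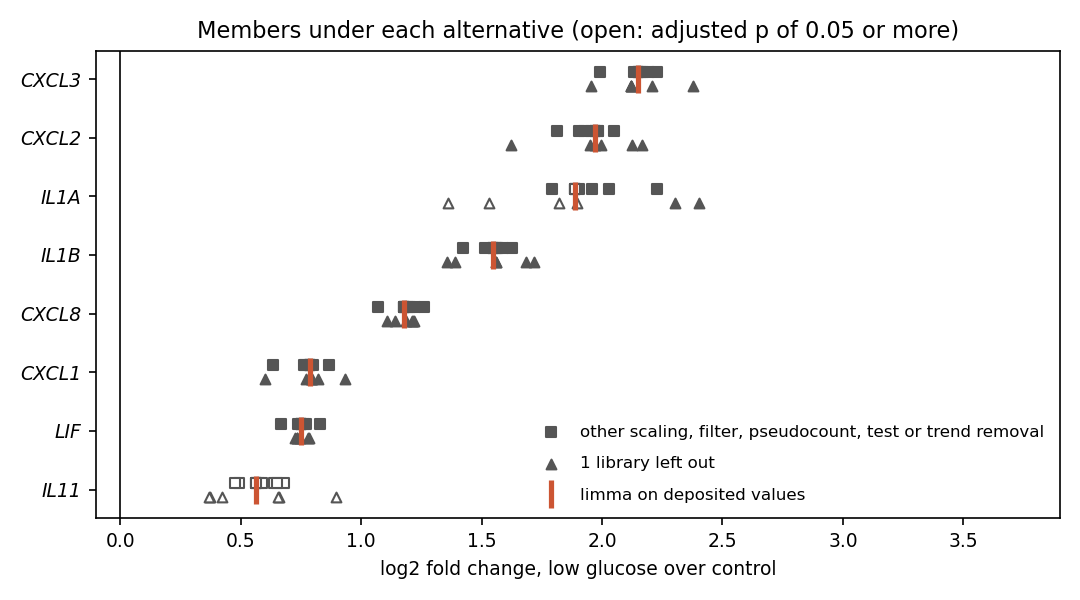
Log2 fold change (x axis) of each member with reads under other scalings, filters, pseudocounts, tests and trend removals (squares) and with 1 library left out (triangles), with a bar for the limma value on the deposited scale and open symbols for adjusted p of 0.05 or more. CXCL8, CXCL1, CXCL2, CXCL3, LIF and IL1B stay right of 0 with filled symbols throughout, IL1A has 5 open symbols, and those of IL11 are all open.

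Transcripts of many cytokines carry the AU-rich pentamer ATTTA in the 3′ untranslated region, where decay factors bind. The canonical transcripts had 9 copies in CXCL8, 6 in CXCL1, 10 in CXCL2, 7 in CXCL3, 7 in LIF, 9 in IL11, 5 in IL1A, 6 in IL1B and 6 in IL6, but 1 in CCL2. Over 19550 transcripts the median was 2 copies, and 28.8% had 5 or more. Per kb of the untranslated region, CXCL2 had the densest run among the members with reads, 14.0 copies, and LIF the sparsest, 2.19, against a median of 1.5 over all transcripts.

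The genes that act with these cytokines were described from lists chosen with earlier results of these data known, and their counts are descriptions. Over all 21101 genes tested, 14.7% were higher and 16.2% lower, with a median log2 fold change of 0.05. Of 13 receptor genes, 8 were tested, of which 2 (25%) were higher, 4 (50%) lower and 2 not called. Their median log2 fold change was -0.54. The chemokine receptors CXCR1 and CCR2 had 0 reads in all 6 libraries, CXCR2 had 0, 0 and 1 reads in control and 0, 2 and 0 in low glucose, and the interleukin-1 antagonist IL1RN had 0 reads. In these cells the receptors for CXCL8 and its relatives were thus at or near the detection floor. IL6R, the binding subunit for IL6, fell from 63, 75 and 83 reads to 34, 37 and 51 reads (log2 fold change -1.15, limma adjusted p = 0.000407). LIFR, the binding subunit for LIF, fell by 0.64 on the log2 scale (limma adjusted p = 0.000330), with 380, 387 and 328 reads in control and 263, 267 and 336 in low glucose. The gp130 gene IL6ST fell by 0.44 on the log2 scale (limma adjusted p = 0.00405, or 0.0827 without the variance trend), from 1420, 1495 and 1151 reads to 1134, 1075 and 1479, and it overlaps ENSG00000262211 on the opposite strand over 797 bases. IL11RA had 29, 24 and 35 reads in control and 27, 35 and 50 in low glucose, and its log2 fold change of 0.02 changed sign with the length trend removed (-0.086). After division by the size factors, the groups did not overlap for IL6R, LIFR or IL6ST. Of all genes tested, 21.8% were separated with low glucose below control. For interleukin-1 the receptor IL1R1 fell from 753, 789 and 729 reads to 473, 437 and 687 (log2 fold change -0.83, limma adjusted p = 1.30e-05). Its partner IL1RAP was higher by 1.20 on the log2 scale (limma adjusted p = 0.00190), as was the inhibitory family member SIGIRR by 0.96 (limma adjusted p = 0.0153). The SIGIRR call was lost without the variance trend (limma adjusted p = 0.0528), low-glucose replicate 2 (0.0843) or the deepest low-glucose library (0.0593).

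Of 21 NF-kB pathway genes, all tested, 6 (28.6%) were higher, 1 (4.76%) lower and 14 not called, with a median log2 fold change of 0.03. The shares over all genes tested were 14.7% and 16.2%. The pathway genes that rose most encode inhibitors and modulators: TNFAIP3 (A20) at 0.97 (limma adjusted p = 0.00121), NFKBIZ at 0.80 (0.00337) and NFKBIA at 0.63 (0.000788). Other inhibitors and modulators of the list, named after their values were seen, were not called. They were NFKBIB at 0.08 (limma adjusted p = 0.585), NFKBIE at -0.006 (0.980), TNIP1 at -0.14 (0.265) and BCL3 at -0.17 (0.323). The remaining genes called higher encode subunits and a kinase of the pathway, and were named after their values were seen. They were RELB at 0.54 (limma adjusted p = 0.000909), NFKB2 at 0.48 (0.000290) and IKBKB at 0.39 (0.00434). NFKB1, which encodes the p50 precursor, fell by 0.39 on the log2 scale (limma adjusted p = 0.00625, or 0.0754 without the variance trend). Of 11 C/EBP and AP-1 factors, 5 (45.5%) were higher, none lower and 6 not called, with a median of 0.20. ATF3, a stress-induced factor, rose most, from 48, 30 and 73 reads to 413, 337 and 473 reads (log2 fold change 2.77, limma adjusted p = 6.92e-07). CEBPB rose from 838, 824 and 1021 reads to 3008, 2628 and 3397 reads (1.45, limma adjusted p = 4.24e-08), and it overlaps CEBPB-AS1, with 216 to 1099 reads, over 231 bases of the opposite strand. CEBPG was higher by 0.67 on the log2 scale (limma adjusted p = 1.00e-05).

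Of 10 JAK-STAT3 genes, 2 (20%) were higher, 4 (40%) lower and 4 not called, with a median log2 fold change of -0.21. The shares over all genes tested were 14.7% and 16.2%. STAT3, the main transducer of LIF and its relatives, fell from 3520, 3903 and 3228 reads to 2377, 2493 and 3245 (-0.70, limma adjusted p = 3.50e-05). SOCS3, a feedback inhibitor induced by STAT3, fell by 0.87 on the log2 scale (limma adjusted p = 0.000781). PIAS3, an inhibitor of STAT3, was higher by 0.48 (limma adjusted p = 0.00410) and the kinase JAK1 by 0.27 (limma adjusted p = 0.0166). Without the variance trend, 2 of the 10 were called, and PIAS3 (limma adjusted p = 0.0776) and JAK1 (0.0909) were not. The JAK1 call was also lost without the shallowest control library (limma adjusted p = 0.0632), low-glucose replicate 1 (0.0767), replicate 2 (0.0689) or the deepest low-glucose library (0.0600).

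Of 12 genes for processing and release of interleukin-1, 10 were tested, of which 1 (10%) was higher, 1 (10%) lower and 8 not called. Their median log2 fold change was -0.02, and over all genes tested 14.7% were higher and 16.2% lower. GSDME, a pore-forming gasdermin, rose from 75, 68 and 107 reads to 274, 271 and 335 (log2 fold change 1.53, limma adjusted p = 4.07e-06). CAPN2, a subunit of the calpain that cleaves the IL1A precursor, fell by 0.23 on the log2 scale (limma adjusted p = 0.0300). The CAPN2 call was lost with library size scaling (limma adjusted p = 0.128), with no filter (0.0597), without the variance trend (0.10) and without the shallowest control library (0.0883), low-glucose replicate 1 (0.12), replicate 2 (0.14) or the deepest low-glucose library (0.0879). Of the inflammasome genes, named after their values were seen, NLRP3 had 0 to 1 reads, PYCARD 0 to 3 and CASP1, which encodes the protease that cleaves the IL1B precursor, 7 to 31, whereas CASP4, the caspase of the non-canonical inflammasome, had 509 to 802. Of 12 genes for decay or stability of cytokine mRNAs, 1 (8.33%) was higher, 3 (25%) lower and 8 not called, with a median of 0.00. KHSRP fell by 0.54, HNRNPD by 0.50 and ELAVL1 by 0.45 on the log2 scale (limma adjusted p = 0.000152, 0.000365 and 0.000222), all of them proteins that bind AU-rich elements, and TIA1, a translational repressor of such mRNAs, was higher by 0.31 (limma adjusted p = 0.0153). The paper describes HuR, the product of ELAVL1, as stabilizing IDH1 mRNA, so a fall in this list need not mean less decay. The TIA1 call was lost without the variance trend (limma adjusted p = 0.0825), low-glucose replicate 1 (0.0509) or the deepest low-glucose library (0.0936).

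Of 32 other cytokine and chemokine genes, 18 were tested, of which 5 (27.8%) were higher, 2 (11.1%) lower and 11 not called. Their median log2 fold change was 0.81, and over all genes tested 14.7% were higher and 16.2% lower. CSF3 (G-CSF, a neutrophil growth factor) rose from 203, 121 and 197 reads to 461, 495 and 568 (1.28, limma adjusted p = 3.06e-05). IL32 rose from 5, 3 and 11 reads to 30, 41 and 37 (2.21, limma adjusted p = 0.000867). The lymphocyte-attracting chemokine CCL5 fell by 0.68 on the log2 scale (limma adjusted p = 0.0194) and CXCL16 fell by 0.57 (limma adjusted p = 0.00257). The CCL5 call was lost in DESeq2 (adjusted p = 0.0555) and in limma without the shallowest control library (0.0740), low-glucose replicate 1 (0.0862) or replicate 2 (0.0539). TNF, named after its values were seen, had 0 to 6 reads in a library.

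**Figure D5:**
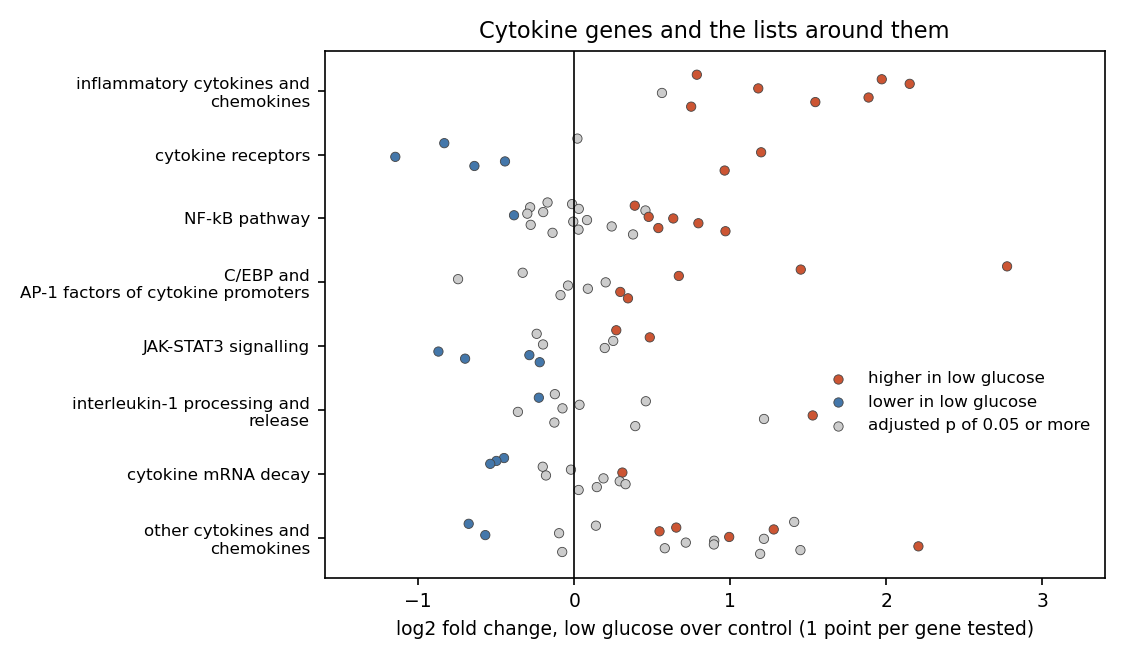
Log2 fold change (x axis, low glucose over control) of each tested gene in the members' list and in 7 lists around it, coloured where the adjusted p was under 0.05. The members lie between 0.56 and 2.15, and ATF3 at 2.77 is the point farthest to the right. The receptors run from -1.66 (IL1R2, just beyond the left edge of the axis) to 1.20.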

How the data were processed

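MiaPaCa-2 RNA was sequenced with a directional kit. Per the labels' processing notes, the tools included STAR 2.7.0e and DESeq2, and the genome build was hg38. RSEM stands in the study's software list without a stated role, and the strand setting of the counting and the annotation are not given in the sources used here. What was deposited is a count-like signal, since the authors had scaled each library's gene counts by its own size factor. All 100% of the values came out as whole reads (within 0.01 read), so reads per library were recovered from 6 columns. Only low-glucose replicates 1 and 2 have a column named in the labels. The remaining 4 columns were assigned from their names, which run in 2 series of 3, and the libraries are called by depth.

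Of 60668 genes, 28454 had a read and 99.5% of identifiers matched GENCODE 44. The 21101 genes whose mean was 1 or more were analysed as log2(value + 1), which understates the change of low genes, with limma 3.58.1 in R 4.3.3 (variance trend over mean expression, a two-sided test and Benjamini-Hochberg adjustment at 0.05). This limma test called 6528 genes. On the recovered reads, edgeR 4.0.16 called 3200 genes higher and 3354 lower of 15322, and DESeq2 1.42.0 called 2407 higher and 3079 lower of 17421. Scripts were tested on simulated data. The fit was recomputed under 10 alternatives with all libraries and with each library left out. The floors of 3 reads cover counting error only, and the 95% intervals come from the limma fit and cover the spread between libraries.

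The members, lists and tests were chosen with earlier results of these data known. All 10 members were named, and from each list up to 3 called genes that rose most and up to 3 that fell most, at a mean of at least 10 normalized counts, plus the direct receptors and IL1RN. Some genes of the lists are counted but not reported here by name.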

Additional observations from a re-analysis of the deposited data

How the results depend on the processing

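CXCL8, CXCL1, CXCL2, CXCL3, LIF and IL1B kept their direction and their call under every alternative that was run: with all libraries their log2 fold changes were 1.07 to 1.26, 0.63 to 0.87, 1.81 to 2.05, 1.99 to 2.23, 0.67 to 0.83 and 1.42 to 1.62, and with 1 library left out 1.11 to 1.22, 0.60 to 0.93, 1.62 to 2.17, 1.95 to 2.38, 0.72 to 0.78 and 1.36 to 1.72. Of the 10 members, 6 to 7 were called higher and 0 lower in every fit. IL1A was not called without the variance trend (1.89, limma adjusted p = 0.10), ranged from 1.36 to 2.40 with 1 library left out, and did not pass the filter of edgeR. IL11 was not called in any fit (limma, edgeR or DESeq2), and its log2 fold change was 0.37 to 0.90 with 1 library left out. The log2 fold change of IL11RA changed sign with the length trend removed (-0.086) and with the GC trend removed (-0.094), and leaving out 1 library gave -0.10 to 0.18.

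Without the variance trend 4090 genes were called, 1991 of them lower, against 6528 and 3417, and JAK-STAT3 calls dropped from 6 to 2. With 1 library left out, 4319 to 7251 genes were called, 1931 to 3534 higher and 2388 to 3741 lower, and the calls were 3 to 7 for JAK-STAT3, 1 to 3 for interleukin-1 processing and 7 to 11 for NF-kB (11 without the middle control library). Interleukin-1 processing had 1 call, in place of 2, with library size scaling, with no filter and without the variance trend. Library size scaling gave 3935 higher and 2647 lower calls, against 3111 and 3417. The causes were not tested. No paired analysis was possible because the labels tie a replicate number to 2 columns alone. Reads were few for IL1A and IL11 and absent for CCL2 and IL6, and 3 libraries per group limit the ratio tests to p = 0.1 at the lowest (exact permutation).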
